A study of Arabidopsis thaliana with 22 samples.

Results

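The plastid genome of Arabidopsis thaliana codes for 11 subunits of the chloroplast NADH dehydrogenase-like (NDH) complex, and 7 of their genes, ndhF, ndhD, ndhE, ndhG, ndhI, ndhA and ndhH, lie in its small single copy region. These 7 genes were taken by name from the plastid annotation, out of 112 plastid genes measured, by a rule that uses no measured value. ndhF was treated apart, because it lies at one edge of the small single copy region, 3026 bp from ndhD. At its low-coordinate end 34 bp lie in the first inverted repeat. There 39 bp overlap a ycf1 fragment that was left out of the 112 genes. The other 6 form a cluster of 7528 bp from ndhD to ndhH that also holds psaC between ndhD and ndhE.

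The NDH complex sits in the thylakoid membrane and passes electrons from ferredoxin to plastoquinone, which returns electrons around photosystem I and moves protons into the thylakoid lumen. It is related to respiratory complex I, with a membrane arm that pumps protons and a stromal arm that carries iron-sulfur clusters. Plastid genes are packed with proteins into nucleoids, and the genes from ndhD to ndhH, psaC included, are known to be transcribed together from the complementary strand, and ndhF from the same strand on its own.

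The authors used ptATAC-seq. Tn5 transposase cuts and tags plastid DNA, and more tags at a position mean that the DNA there was more often cut and recovered. The source was rosette leaf of wild-type plants of the Col0 ecotype grown on soil in long days, from which chloroplasts were enriched and fixed with formaldehyde. The labels name 2 fractions, Nucleoid and Naked, each with replicates numbered to 11. These names are read here as plastid DNA with its bound proteins and plastid DNA without them. Both carry the same extraction text, so that how the naked DNA was made is not given in the sources used here. The labels do not say whether replicates came from separate plants or harvests, so p-values measure the spread between these libraries, which may be technical. Nucleoid replicates 9 and 10 did not differ at any of the 154477 positions, so only 1 of them entered, which left 10 Nucleoid and 11 Naked libraries.

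Depth differed widely, from 202725 to 1813905 counts in the Nucleoid libraries and from 105763 to 1195649 in the Naked libraries. Signal is the mean count per position over a gene or window as a percentage of the mean over the whole plastid genome in that library, so 100% is the genome average. Unevenness is the SD of log2(signal + 1) over the 200 bp windows of a library. Naked replicates 9, 10 and 11 stood apart, with an unevenness of 1.43, 1.36 and 1.63 against 0.439 to 1.009 in the other 18 libraries. The small single copy region held 2.41%, 3.54% and 2.16% of the counts in these 3 libraries, and 6.02% to 9.33% in the other 18. Results that rest on these libraries are given with and without them, and the part that unevenness or depth plays in the differences between the fractions was not tested apart from those values and the fits named below.

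None of the 7 genes passed the test between fractions, although all 7 fitted differences had the same sign. All 7 were above 0, as were 66 of all 112 genes. Against a background of 33.9% of 112 genes called (11, or 9.82%, higher and 27, or 24.1%, lower in the nucleoid fraction), 0 of 7 NDH genes were called by limma at an adjusted p of 0.05, and 3 of the 7 had an unadjusted p under that value. limma-voom also called 0 of 7. The fitted log2 fold changes, nucleoid over naked, lay between 0.28 for ndhD and 0.69 for ndhI with a median of 0.46, beside a median of 0.10 over all genes, and the adjusted p-values lay between 0.082 and 0.155. Without Naked 9, 10 and 11 the median of the 7 was 0.06, with a range of -0.002 to 0.12, beside -0.01 over all genes, and 0 of 7 were called where 23.2% of all genes were. In the 13 libraries with more than 600000 counts (8 Nucleoid, 5 Naked) the median was -0.01, with a range of -0.07 to 0.06, beside -0.02 over all genes, and 0 of 7 were called where 13.4% of all genes were. In replicates 1 to 8 of both fractions the 7 log2 fold changes lay between 0.04 and 0.15, with adjusted p-values from 0.069 to 0.620.

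**Figure D1:**
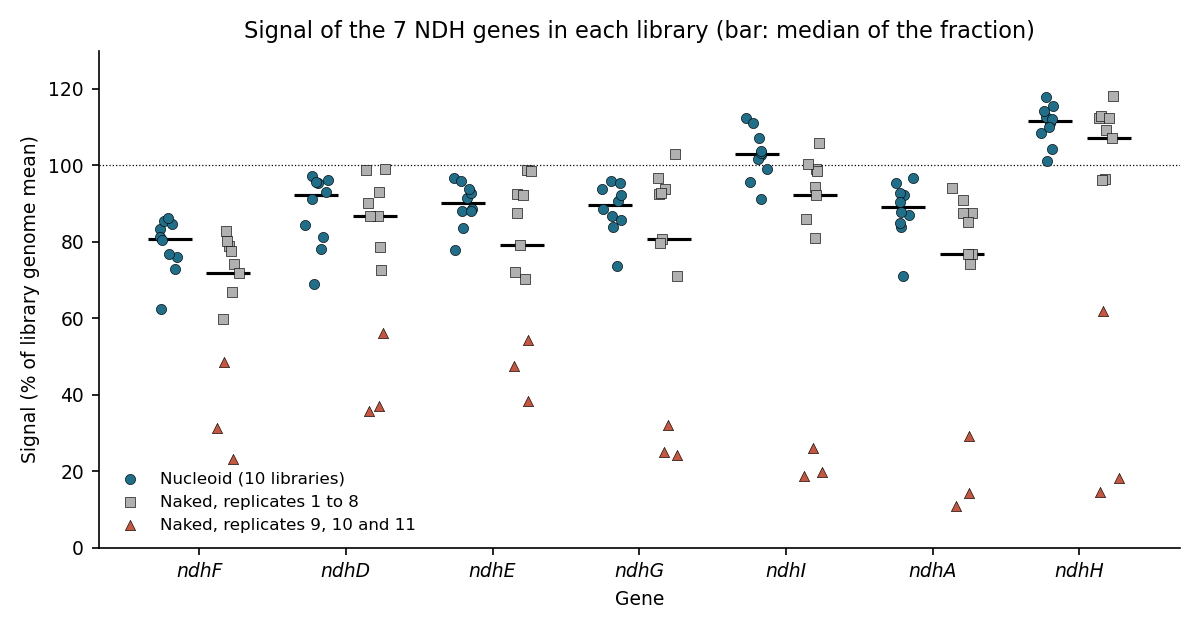
Signal of each of the 7 NDH genes in every library, in percent of that library's genome mean, for the Nucleoid and Naked fractions. The black bars are the medians of each fraction and the dotted line is the genome mean. For each gene Naked 1 to 8 overlap the range of the Nucleoid libraries, while Naked 9, 10 and 11 (triangles) lie below it, as for ndhA at 14.3%, 29.2% and 11.0%.

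ndhF (ArthCp071, 2241 bp) codes for an antiporter-like, proton-pumping subunit of the membrane arm. It had the lowest level of the 7 in both fractions: its nucleoid signal was 62.6% at the lowest, 80.8% at the median and 86.4% at the highest of 10 libraries. The Naked libraries gave 23.1%, 71.8% and 83.0%, and Naked 1 to 8 alone lay between 59.9% and 83.0%. The ranges overlapped across nearly the whole nucleoid range, and the low Naked values were 23.1%, 48.5% and 31.4% in replicates 9, 10 and 11. The means were 79.0% ± 7.3 (SD, n = 10) and 63.2% ± 20.5 (SD, n = 11), a log2 fold change of 0.40 (SE 0.19, adjusted p = 0.094 by limma), with 9 of 10 Nucleoid libraries above the naked median. Without Naked 9 to 11 the log2 fold change was 0.09 (adjusted p = 0.366), and in the deep libraries 0.05, with a 95% interval of -0.03 to 0.14.

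ndhD (ArthCp074, 1503 bp) codes for another antiporter-like subunit of the membrane arm and had the smallest fitted difference of the 7. Its nucleoid signal was 69.0%, 92.2% and 97.3% at the lowest, median and highest library, against 35.7%, 86.7% and 99.1% in the Naked libraries. The highest library of all was a Naked one, and only 6 of 10 Nucleoid libraries exceeded the naked median. The log2 fold change was 0.28 (SE 0.17, adjusted p = 0.155 by limma) with all libraries, and -0.002 (adjusted p = 0.989) without Naked 9, 10 and 11, which stood at 35.7%, 56.2% and 37.0%.

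The small membrane subunits gave the same picture. ndhE (ArthCp076, 306 bp), the counterpart of the complex I subunit ND4L, had a nucleoid median of 90.1% (77.9% to 96.7%) and a naked median of 79.2% (38.5% to 98.9%), with a log2 fold change of 0.30 (SE 0.14, adjusted p = 0.098 by limma), or 0.06 (adjusted p = 0.586) without Naked 9, 10 and 11. With 100 bp trimmed from each end of the genes, short genes being left whole, ndhE was the only one of the 7 to be called. The trim took most of its 306 bp. The rest had a log2 fold change of 0.47 and an adjusted p of 0.028 by limma, where 29.5% of all genes were called. Without Naked 9, 10 and 11 the trimmed ndhE had 0.21 (adjusted p = 0.064) and was not called, where 20.5% of all genes were. ndhG (ArthCp077, 531 bp), the counterpart of ND6, had a nucleoid median of 89.7% (73.6% to 95.9%) and a naked median of 80.9% (24.2% to 103%), with a log2 fold change of 0.46 (SE 0.25, adjusted p = 0.122), or 0.002 (adjusted p = 0.989) without those 3 libraries. In both genes the highest value came from a Naked library and the lowest from Naked 11, at 38.5% and 24.2%.

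ndhA (ArthCp079, 2163 bp) codes for the membrane subunit that joins the membrane arm to the stromal arm, and is known to carry an intron. Its nucleoid signal was 71.0%, 89.1% and 96.6% at the lowest, median and highest library. The Naked libraries gave 11.0%, 76.9% and 94.2%, with Naked 1 to 8 between 74.3% and 94.2%. Naked 9, 10 and 11 stood at 14.3%, 29.2% and 11.0%, far under every other library, and the SD of log2 signal was 0.13 in the Nucleoid libraries, 1.11 in all Naked libraries and 0.12 in Naked 1 to 8. The log2 fold change was 0.68 (SE 0.34, adjusted p = 0.101 by limma), and 0.07 (adjusted p = 0.512) without those 3 libraries.

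Of the stromal arm subunits, ndhI (ArthCp078, 519 bp) codes for one that holds iron-sulfur clusters, and it had the largest fitted difference of the 7. Its nucleoid signal was 91.2%, 103% and 112% at the lowest, median and highest library, against 18.7%, 92.2% and 106% in the Naked libraries. Naked 1 to 8 lay between 81.0% and 106% and overlapped most of the nucleoid range, while Naked 9, 10 and 11 stood at 19.9%, 26.2% and 18.7%. The log2 fold change of 0.69 (SE 0.30, adjusted p = 0.082 by limma) ranked 3 of 112 genes, counted from the highest in the nucleoid fraction. Without those 3 libraries it was 0.12 with a 95% interval of 0.010 to 0.228, which did not pass adjustment (adjusted p = 0.094), and in the deep libraries it was 0.06 (adjusted p = 0.420).

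ndhH (ArthCp080, 1182 bp) codes for the stromal arm subunit near the site where plastoquinone binds, and had the highest level of the 7 in both fractions. Its nucleoid signal was 101%, 112% and 118% at the lowest, median and highest library, so every Nucleoid library was above its genome mean. The Naked libraries gave 14.6%, 107% and 118%, with Naked 1 to 8 between 96.1% and 118%. Naked 9 and 11 fell to 18.2% and 14.6%, whereas Naked 10 kept 62.0%. The log2 fold change was 0.59 (SE 0.32, adjusted p = 0.131 by limma) with all libraries, 0.04 (adjusted p = 0.619) without the 3, and -0.01 in the deep libraries with a 95% interval of -0.09 to 0.06.

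The lowest count of a gene in any library was between 130 for ndhI and 943 for ndhF. The part of counting error in the gaps described for Naked 9, 10 and 11 was not tested. Counts are tags of amplified DNA and not all independent molecules. In bulk libraries, fewer copies of a region in the DNA preparation and fewer cuts per copy cannot be told apart.

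**Figure D2:**
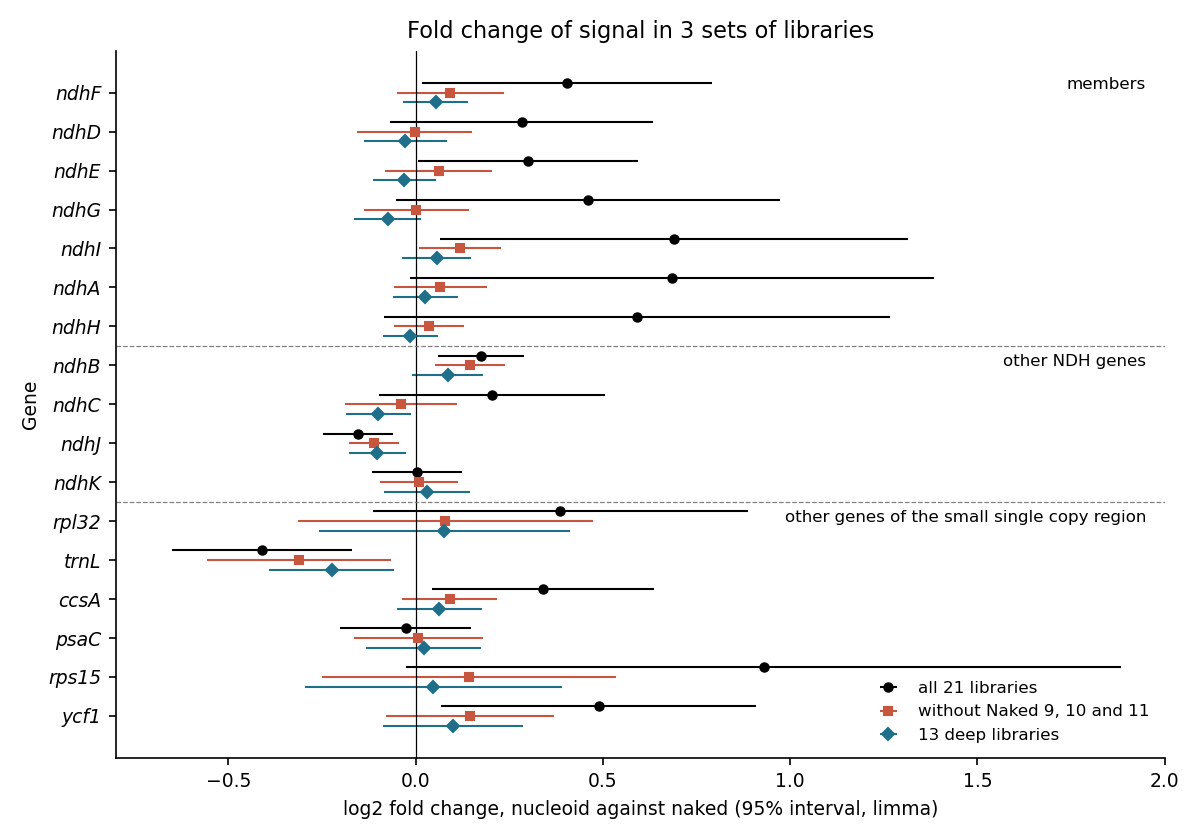
Log2 fold changes, nucleoid over naked, with 95% intervals, for the 7 NDH genes of the small single copy region and the other genes named, with all 21 libraries, without Naked 9, 10 and 11, and in the deep libraries. The 7 NDH genes lie at 0.28 to 0.69 with wide intervals in the first, and at -0.002 to 0.12 and -0.07 to 0.06 with narrower intervals in the others.

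Among themselves the 7 genes kept a partly stable order of levels. In the nucleoid fraction ndhH stood above ndhI in 9 of 10 libraries, by 7.98 ± 6.67 percentage points (SD, n = 10), and ndhI above ndhD in 10 of 10, by 14.6 ± 9.9. ndhD, ndhE, ndhG and ndhA, with medians from 92.2% to 89.1%, could not be ordered: ndhD was above ndhE in 4 of 10 libraries, ndhE above ndhG in 5 of 10, and ndhG above ndhA in 7 of 10 by 0.476 ± 2.677. ndhA was above ndhF in 10 of 10, by 9.20 ± 2.63. In the Naked fraction ndhH and ndhF again had the highest and lowest medians, but no gene was above the next in more than 9 of 11 libraries. Among all 112 genes, the medians placed ndhH at rank 40 in the nucleoid and 51 in the Naked fraction, and ndhF at rank 87 and 98.

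The ratio of ndhF to the mean of the cluster does not depend on how a library is scaled. It was 0.80 to 0.89 over the Nucleoid libraries with a median of 0.86, and 0.77 to 0.83 over Naked 1 to 8. In Naked 9, 10 and 11 it was 0.995, 1.12 and 1.49. The cluster stood at 23.3%, 43.2% and 21.1% of the genome mean there while ndhF stood at 23.1%, 48.5% and 31.4%. The order of ndhF under the cluster, which held in all other 18 libraries, was thus reversed in Naked 10 and 11, and the levels were nearly equal in Naked 9.

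**Figure D3:**
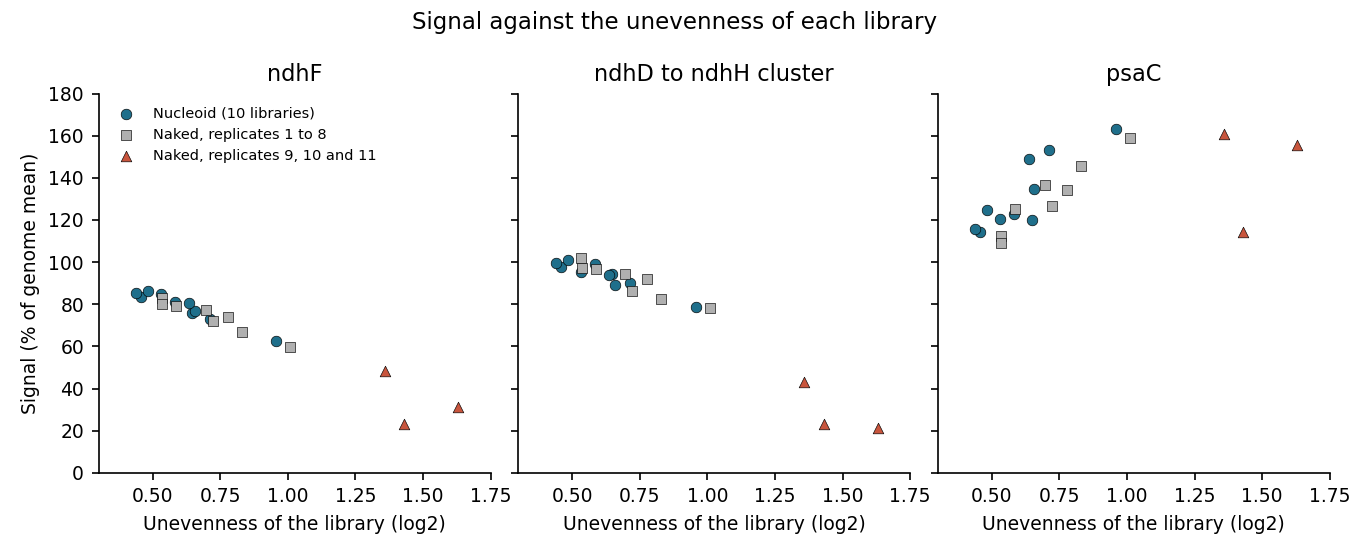
Signal of ndhF, of the ndhD to ndhH cluster and of psaC, in percent of the genome mean, against the unevenness of each library (SD of log2(signal + 1) over 200 bp windows). ndhF and the mean of the cluster tend to be lower in the more uneven libraries of both fractions, and psaC does not.

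Within each fraction ndhF and the mean of the cluster tended to be lower in the more uneven libraries. The order was not strict, as the cluster was at 86.31% in Naked 6 and 91.89% in the more uneven Naked 5. Nor did each gene of the cluster follow it: ndhI was at 102.73% in Nucleoid replicate 2 and 107.16% in the more uneven replicate 9. The most even Nucleoid library, replicate 2 with an unevenness of 0.44, had ndhF at 85.57% and the cluster at 99.62%. The most uneven, replicate 11 with 0.96 and 202725 counts, had ndhF at 62.57% and the cluster at 78.55%. Among Naked 1 to 8 the most even library, replicate 1 at 0.53, had ndhF at 82.96% and the cluster at 101.91%, and the most uneven, replicate 7 at 1.01, had 59.91% and 78.18%. With unevenness as a term in the model, the log2 fold changes of the 7 genes lay between -0.11 and 0.02, with 0 of 7 called by limma none with an unadjusted p under 0.05, and 23.2% of all genes called. With log2 depth as a term instead, they lay between 0.12 and 0.50 with a median of 0.26, all above 0, again with 0 of 7 called and none with an unadjusted p under 0.05, where 17.9% of all genes were called. Unevenness is computed from windows that include these genes.

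psaC, which codes for the iron-sulfur subunit of photosystem I and lies inside the cluster, did not share the low values of its neighbours. Its signal was 114% at the lowest, 124% at the median and 163% at the highest Nucleoid library, and 109%, 134% and 161% in the Naked libraries. Naked 9, 10 and 11 gave 114%, 161% and 156%, among the values of the other libraries. Over the Nucleoid libraries it ran opposite to its neighbours, from 115.55% in replicate 2, the most even, to 162.93% in replicate 11. Its log2 fold change was -0.03 (adjusted p = 0.818 by limma), and 0.01 (adjusted p = 0.983) without Naked 9, 10 and 11.

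Of the other 6 genes of the small single copy region, 0 were called higher and 1 was called lower in the nucleoid fraction. Among all 112 genes the shares were 9.82% higher and 24.1% lower. The lower one was trnL, the tRNA gene next to ccsA, with a log2 fold change of -0.41 (SE 0.12, adjusted p = 0.012 by limma), or -0.31 without Naked 9, 10 and 11, where the call was lost (adjusted p = 0.062). The other genes beside psaC, namely rps15, ycf1, ccsA and rpl32, had log2 fold changes of 0.93, 0.49, 0.34 and 0.39 with adjusted p-values of 0.101, 0.070, 0.071 and 0.166. Without those 3 libraries the log2 fold changes were 0.14, 0.15, 0.09 and 0.08, none of them called, where 23.2% of all genes were. rps15, a ribosomal protein gene just past ndhH, was at 8.1%, 15.4% and 3.1% in Naked 9, 10 and 11, lower than any NDH gene there.

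Of the 4 plastid NDH genes outside the small single copy region, 1 was higher, 1 was lower and 2 were not called. Over all 112 genes 9.82% were called higher and 24.1% lower. ndhB, an antiporter-like membrane subunit whose gene is present in both copies of the inverted repeat, was higher in the nucleoid fraction, 125% ± 7 (SD, n = 10) against 111% ± 10 (SD, n = 11). Its log2 fold change was 0.17 (SE 0.06, adjusted p = 0.020 by limma), and 0.15 (adjusted p = 0.022) without Naked 9, 10 and 11. ndhJ, a stromal arm subunit, was lower, 111% ± 5 (SD, n = 10) against 124% ± 10 (SD, n = 11), with a log2 fold change of -0.15 (SE 0.05, adjusted p = 0.014) and 0 of 10 Nucleoid libraries above the naked median. Without Naked 9, 10 and 11 ndhJ was still called, at -0.11 (adjusted p = 0.016). In the deep libraries neither was called, ndhB at 0.09 (adjusted p = 0.216) and ndhJ at -0.10 (adjusted p = 0.068), where 13.4% of all genes were called. The call of ndhB was also lost with depth in the model (adjusted p = 0.067), with unevenness in the model (adjusted p = 0.072) and under scaling to the median window, to the large single copy region or to the small single copy region, where its log2 fold change was -0.34 (adjusted p = 0.177). ndhC and ndhK, with log2 fold changes of 0.20 and 0.005, were not called (adjusted p = 0.227 and 0.951), and had -0.04 and 0.01 without Naked 9, 10 and 11. No test of a difference in fold change between these genes and those of the small single copy region was made.

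The genes whose signal was most like that of ndhF across the 21 libraries all lay in the large single copy region. By Pearson's r of log2(signal + 1), given as a description over libraries that share their depth and unevenness, they were cemA at 0.99, rps18 at 0.97 and ycf4 at 0.97. In the 18 libraries without Naked 9, 10 and 11 the r values were 0.95, 0.92 and 0.68, so that the likeness of ycf4 rested more on those 3 libraries. For the mean of the cluster the nearest were rpl33, psaJ and petG, at 0.995, 0.99 and 0.99 over 21 libraries and 0.89, 0.88 and 0.86 over 18. cemA stood at 14.4%, 38.4% and 28.0%, and rpl33 at 19.2%, 32.8% and 16.3%, in Naked 9, 10 and 11.

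**Figure D4:**
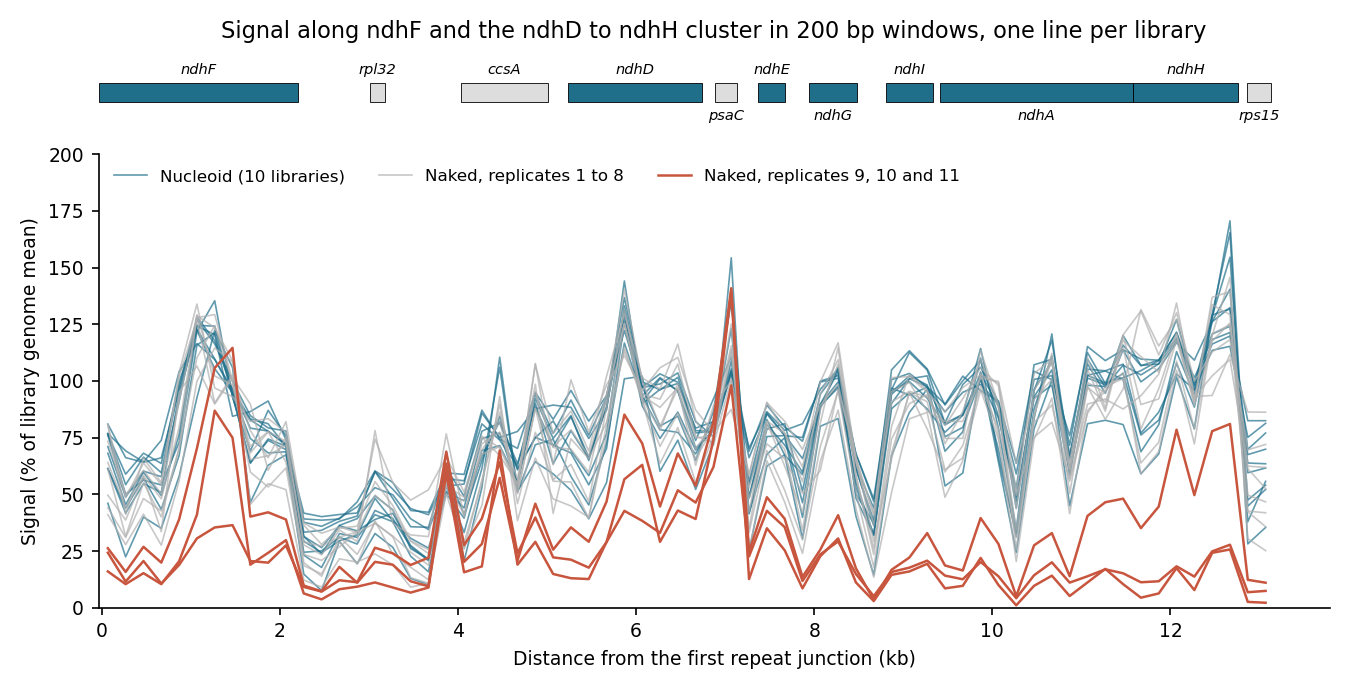
Signal in 200 bp windows, in percent of the genome mean, against distance from the first repeat junction in kb, with one line per library: 10 Nucleoid (blue), Naked 1 to 8 (grey) and Naked 9, 10 and 11 (red), and the genes drawn above (NDH genes filled). Blue and grey lines rise and fall at the same windows, with nucleoid medians from 31.5% to 132% in windows that touch an NDH gene, and the red lines lie below them in most windows but not over psaC.

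Along the genes, the nucleoid fraction and Naked 1 to 8 had highs and lows at nearly the same places. Of the 47 windows that overlap an NDH gene by at least 1 bp, 34 lie wholly inside these genes. In ndhF the highest of those inside was Pltd:111401-111600, with a nucleoid median of 123%, and the lowest was Pltd:110601-110800 at 49.5%. Over Naked 1 to 8 the same 2 windows were highest and lowest, at 128% and 39.9%. In ndhA the lowest was Pltd:120601-120800, at 45.5% in the nucleoid fraction and 39.0% in Naked 1 to 8, between windows at 84.1% and 94.4% in the nucleoid fraction. In ndhD the highest was Pltd:116201-116400, at 129% and 125%. Of the 5 genes with more than 1 window inside, all 5 had their lowest window at the same place in both sets, and 4 their highest, the exception being ndhH. The lowest window that touches a member, Pltd:112601-112800 at 31.5%, lies mostly past the high-coordinate end of ndhF.

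Across the whole plastid genome 22.8% of 772 windows were called, and 11.7% of the 772 were called higher in the nucleoid fraction. Of the 47 windows that overlap an NDH gene 2 were called, both higher and both in ndhF, so that the share of called windows was below the background. The 2 were singled out after their values were seen. Pltd:111001-111200 had a nucleoid median of 56.0% (35.1% to 73.9%) and a naked median of 40.1% (10.4% to 55.3%), with a log2 fold change of 0.78 (SE 0.27, adjusted p = 0.046 by limma). Pltd:110601-110800 had a nucleoid median of 49.5% (22.5% to 69.2%) and a naked median of 31.5% (10.4% to 49.7%), with a log2 fold change of 0.75 (SE 0.27, adjusted p = 0.0498). Both groups overlapped in each window. The calls ended when any of 14 and 16 of the 21 libraries, respectively, was left out, each of the Nucleoid replicates 1 to 9 and Naked 9, 10 and 11 among them, and without Naked 9 to 11 the log2 fold changes were 0.33 and 0.32 (adjusted p = 0.131 and 0.209), when 7.12% of all windows were called. In replicates 1 to 8 of both fractions, which also leave out those 3 libraries, both windows were called, at 0.45 and 0.47 (adjusted p = 0.034 and 0.030), where 15.4% of all windows were.

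All 47 fitted window differences were above 0, from 0.06 to 1.05 with a median of 0.55. The windows share the same libraries, Naked 9, 10 and 11 among them, so their signs are not independent of each other. The largest was Pltd:120601-120800 in ndhA, the low window described above, at 1.05 (SE 0.50, adjusted p = 0.1005 by limma). Its signal was 24.4%, 45.5% and 63.7% at the lowest, median and highest Nucleoid library and 4.2%, 5.1% and 1.1% in Naked 9, 10 and 11, where the lowest value rests on 3 counts. The next, Pltd:118201-118400 at the edge of ndhG, had 0.87 (SE 0.32, adjusted p = 0.054). With limma-voom the windows at 120601 and 118201 were both called, at 0.97 and 0.72 (adjusted p = 0.047 and 0.028), as were 260 of all 772. Without Naked 9, 10 and 11 limma gave 0.16 and 0.36 (adjusted p = 0.622 and 0.252) and called neither, where 7.12% of all windows were called. The smallest were Pltd:111801-112000 in ndhF at 0.06 (adjusted p = 0.708) and Pltd:116801-117000 in ndhD at 0.13 (adjusted p = 0.452). In the former, Naked 9, 10 and 11 gave 36.5%, 115% and 75.0%, so that the low signal of these libraries was not spread evenly over ndhF. In the deep libraries the 47 values lay between -0.17 and 0.33, none was called, and 0.13% of all windows were.

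The spacers of the cluster were lower than the genes on either side of them. All 6 spacers within and at the end of the cluster had less signal than both of their neighbouring genes in 10 of 10 Nucleoid and 11 of 11 Naked libraries. The ndhE to ndhG spacer of 267 bp had a nucleoid median of 48.6% and a naked median of 25.9%, and the ndhG to ndhI spacer of 336 bp had 42.3% and 27.5%. Over Naked 1 to 8 alone the medians of these 2 spacers were 37.5% and 32.5%. The ndhI to ndhA spacer of 84 bp had 61.3% and 38.8%, the highest of the 6 in both fractions. Over Naked 1 to 8 alone it had 44.34%, just under the 44.41% of the psaC to ndhE spacer. ndhA and ndhH are 1 bp apart and have no spacer to measure.

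Flanks of 200 bp on both sides of every gene were tested, because the tables used gave no strand. Some flanks lie largely in neighbouring genes, as beside ndhA, which is 84 bp from ndhI and 1 bp from ndhH. Its low-coordinate and high-coordinate flanks had nucleoid medians of 97.1% and 105%, above the 89.1% of ndhA itself. Of all 223 flanks 26.9% were called, and 17.5% of the 223 were called higher in the nucleoid fraction. Of the 14 beside the NDH genes 3 were called, all higher, a share close to the background. The low-coordinate side of ndhG had a nucleoid median of 51.8% (27.0% to 74.0%) and a naked median of 27.8% (7.5% to 59.0%), with a log2 fold change of 0.99 (SE 0.33, adjusted p = 0.036 by limma). The high-coordinate side of ndhE, which overlaps it in the same spacer, had 0.92 (SE 0.32, adjusted p = 0.046), and the low-coordinate side of ndhD had 0.75 (SE 0.25, adjusted p = 0.042). Leaving out any of 10, 15 and 13 of the 21 libraries, respectively, ended these calls, each of Nucleoid 1, 2, 4, 5, 6 and 8 and Naked 7, 9, 10 and 11 among them for all 3. Without Naked 9, 10 and 11 the log2 fold changes were 0.47, 0.42 and 0.30 (adjusted p = 0.152, 0.206 and 0.112), when 0.448% of all flanks were called. In replicates 1 to 8 of both fractions all 3 were called, at 0.64, 0.57 and 0.36 (adjusted p = 0.035, 0.049 and 0.035), where 29.1% of all flanks were. limma-voom did not call the low-coordinate side of ndhD (0.29, adjusted p = 0.149).

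The high-coordinate side of ndhF, which is known as the side before its start, had one of the lowest levels measured here. Its signal was 14.5%, 26.4% and 35.8% at the lowest, median and highest Nucleoid library and 3.7%, 16.1% and 35.5% in the Naked libraries. The ranges overlapped almost wholly, and the log2 fold change was 0.72 (SE 0.30, adjusted p = 0.065 by limma), or 0.26 (adjusted p = 0.372) without Naked 9, 10 and 11. limma-voom called it with all libraries (0.77, adjusted p = 0.036), where it called 21.1% of all flanks. Over all 14 flanks the fitted log2 fold changes lay between 0.10 and 1.08 with all libraries, between -0.04 and 0.47 without those 3, and between -0.13 and 0.40 in the deep libraries, where none was called.

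The sign of the fitted differences depended on the scaling for 4 of the 7 genes. Scaled to the mean of the small single copy region instead of the genome, which puts the median of all genes at -0.42 on the log2 scale, ndhF, ndhD, ndhE and ndhG had log2 fold changes of -0.11, -0.23, -0.22 and -0.05, and ndhI, ndhA and ndhH stayed above 0. ndhD was then called lower in the nucleoid fraction (adjusted p = 0.047 by limma), where 32.1% of all genes were called, 0 of them higher and 36 lower. That mean includes the counts of the 7 genes themselves. Their fold changes under this scaling are therefore drawn towards 0, and it is no independent check of their signs or of the ndhD call. Scaled to the median window the calls over all genes were 1 higher and 30 lower, and scaled to the large single copy region 5 higher and 28 lower, with 0 of 7 NDH genes called under either.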

How the data were processed

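The authors deposited 1 table of plastid positions by library, and the labels describe ptATAC-seq libraries made with a Nextera kit. Its values are whole-number counts per position, not normalized by the authors as far as the values show. Summed over libraries, log2 counts in the 2 inverted repeat copies correlated at r = 0.907 when mirrored position by position. At the next best shift r was 0.382. Whether the values count read ends was not tested. The column names hold commas in a space-separated table, so that the columns were read by number. limma-voom was fitted to the summed counts as an alternative, and edgeR and DESeq2 were not run. Removal of duplicates and the placing of reads from the inverted repeat are not given in the sources used here. The submitters' processing notes name TAIR10, Trim Galore 0.4.1, Bowtie2 and bedtools 2.25.0, with no roles.

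Counts were summed over 112 genes, 772 windows of 200 bp and 223 flanks, divided by length and by the library's genome mean, and tested as log2(signal + 1) with limma 3.58.1 in R 4.3.3, two-sided, with Benjamini-Hochberg adjustment over all features of a kind and a threshold of 0.05. Features under a mean scaled count of 10 were left out, and all 7 NDH genes passed. The test was also run on simulated data. The outcome is not given here, and no conclusion about groups that hold markedly uneven libraries is drawn from it. Gene limits and names came from a RefSeq table of assembly TAIR10.1, from which no coordinates are printed. Genes were named by rule: the 7, the other NDH and small single copy genes, the 3 most like ndhF and the 3 most like the cluster, and the 2 largest and 2 smallest member windows. Members and lists were chosen with earlier results of these data known. The flanks on both sides and the 95% intervals were added after the data were seen. Alternatives covered scaling, pseudocount, filter, tool, depth, unevenness, left-out libraries, gene limits and window size.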

Additional observations from a re-analysis of the deposited data

Results flagged for a closer look

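Nucleoid replicate 11 stood apart from the other Nucleoid libraries, by a Dixon ratio, for 2 of the 19 values tested in this way. Chance alone flags about 1 in 20, or 0.95 of 19. Its ndhA signal was 71.02% of the genome mean, against 84.03% to 96.64% in the other 9 Nucleoid libraries. Its mean over the ndhD to ndhH cluster was 78.55%, against 89.06% to 100.9%. That mean includes ndhA, so the 2 flags are not independent of each other. This library has the fewest counts (202725) and the highest unevenness (0.96) of the Nucleoid libraries, and the part of either in its low values was not tested.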

How the results depend on the processing

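None of the 7 NDH genes was called under any alternative but 2, each with 1 call: ndhD, lower, with libraries scaled to the small single copy region, and ndhE, higher, with genes trimmed by 100 bp. Leaving out each library in turn gave 0 to 0 of the 7 called (lowest adjusted p 0.0519), 30 to 43 genes, 85 to 348 windows and 5 to 116 flanks. Windows went past 1.5 times either way without Nucleoid 1, 2, 6, 8, 9 or 11 or Naked 1, 2, 3 or 10, and flanks without Nucleoid 1, 2, 5, 6, 7, 8, 9 or 11 or Naked 1, 2, 3, 7, 9, 10 or 11. For all of these changes the cause was not tested, beyond the smaller number of libraries in some fits.

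Signs turned as follows, as log2 fold changes. With scaling to the small single copy region ndhF was -0.1074, ndhD -0.2319, ndhE -0.2157, ndhG -0.0506, the window at 116801 -0.3876 and that at 111801 -0.4538. With unevenness in the model ndhF was -0.0133, ndhD -0.1129, ndhE -0.0308, ndhG -0.1130, ndhA -0.0797, ndhH -0.0968, the high side of ndhF -0.0077, and the windows at 120601, 116801 and 111801 -0.1736, -0.2221 and -0.0913. In the deep libraries ndhD was -0.0277, ndhE -0.0306, ndhG -0.0749, ndhH -0.0136, and the windows at 116801 and 111801 -0.1456 and -0.0945. Without Naked 9, 10 and 11 ndhD was -0.0020 and those windows -0.1087 and -0.0921. They were -0.0953 and -0.0019 by limma-voom, -0.0229 and -0.0888 with median scaling, and -0.0422 and -0.1086 in replicates 1 to 8. The window at 116801 was -0.0381 with depth in the model, and that at 111801 lay between -0.0663 (without Naked replicate 9) and 0.0963 (without Naked replicate 10) when single libraries were left out.

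The 38 genes called became 20 with depth in the model and 15 in the deep libraries, and 23 with trimmed genes and without Naked 9, 10 and 11, a fit added after the data were seen, in which ndhD was -0.0117. The 176 windows became 0 with scaling to the small single copy region (306 at an unadjusted p under 0.05, and 260 adjusted calls by limma-voom with the usual scaling), 3 with depth and 92 with unevenness in the model, 1 in the deep libraries and 55 without Naked 9, 10 and 11, and 882 windows of 50 bp and 87 of 500 bp were called. The 60 flanks became 0 with that scaling, 0 with depth and 1 with unevenness in the model, 0 in the deep libraries and 1 without Naked 9, 10 and 11, with 77, 50 and 45 at an unadjusted p under 0.05 where limma called 0, against 47 adjusted calls by limma-voom with all libraries. Of flanks of 400 bp, 33 were called.

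Same-numbered libraries did not deviate together throughout: 7 of 10 pairs had a correlation of deviations over 0.1 (range -0.07 to 0.72), and 1 of 10 Nucleoid libraries was nearest to its own number. With the replicate block 33 genes, 0 of the 7, 303 windows and 103 flanks were called, among them the high side of ndhF (0.6162, adjusted p = 0.0149), the windows at 110601, 111001 and 118201 (adjusted p = 0.0171, 0.0191 and 0.0171) and the 3 flanks called without it. edgeR, DESeq2, the ratio of intron to exon in ndhA and regions chosen by strand were not run. Depth limits the short regions, such as the ndhA window at 120601 with 3 counts in 1 library.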
